A study of Mus musculus with 6 samples.

Results

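The genes described here encode the machinery that takes up glucose, splits it to pyruvate, passes pyruvate to lactate or into the mitochondrion, and diverts glucose 6-phosphate through the pentose phosphate pathway. The list names 36 genes, chosen by function. A gene counted as measured where the platform's annotation gave at least 1 probe set that gene symbol alone, and the probe set with the highest mean log2 intensity stood for it. On that rule 31 of the 36 genes were measured, out of 18193 measured genes in all, and all 31 passed the filter on dim probe sets (a log2 intensity above 4 on at least 3 of the 6 arrays). Eno1, Gpi1, Mpc2, G6pdx and Gapdh had no such probe set and were not analysed as members, although control probe sets for Gapdh are given further on.

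RNA was taken from CD4+ YFP+ T cells sorted out of the lymph nodes of mice, and hybridised to 6 expression arrays. All mice carried FoxP3-GFP-hCre, which expresses GFP and Cre under control sequences of Foxp3, the transcription factor that defines regulatory T cells. They also carried the ROSA26R-YFP reporter, which turns on in cells where Cre has acted. The control group, called Het, was Dicerwt/lox and so kept 1 Dicer copy that Cre cannot remove, and the KO group was Dicerlox/lox. Dicer cuts microRNA precursors into mature microRNAs. Each group had 3 arrays, lettered A, B and C. Neither age nor separate animals are given for the arrays in the sources used here, so p-values measure the spread between these samples, and that spread may be technical. YFP stays on after Foxp3 is lost, so the sorted cells need not all express Foxp3 at the time of sorting.

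Resting T cells oxidise pyruvate in mitochondria, while T cells that have been activated raise glucose uptake and turn much of the pyruvate into lactate. Regulatory T cells are known to lean on oxidative metabolism more than effector T cells do, and Foxp3 is known to restrain glycolytic genes. Several steps are shared among isozymes with different tissue distributions, such as the enolases, the aldolases, the phosphofructokinases and the hexokinases.

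Median intensity was 58.1 to 61.5 on the 6 arrays, and values are given below in the order A, B and C. Dicer1 read 1203, 1077 and 1059 in Het against 1029, 1053 and 1187 in KO, so the groups overlapped, and its other probe set read 1218, 1120 and 1345 in Het against 897, 976 and 709 in KO. The position of these probes against the floxed exons is not known here, so they check no genotype. Foxp3 read 9960, 8945 and 9769 in Het against 5453, 9417 and 5420 in KO, with KO B inside the Het range. Cd3e, Cd4, Foxp3 and the other T cell and sort genes summed to 134196 to 144820 intensity units in Het and 135644 to 145394 in KO. Within that list Ctla4 (log2 0.76; limma, adjusted p = 0.0686) and Il2ra (0.67) were higher on every KO array than on any Het array. Ikzf2 (-0.24), Cd3d (-0.23) and Cd3g (-0.17) were lower on every KO array. None of the 8 passed the test. Het B and KO B had the highest summed B cell, CD8 T cell, NK cell and myeloid markers of their group. In bulk RNA, fewer cells of a type and less RNA per cell cannot be told apart, which holds for every difference given below.

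Of the 31 measured genes, 1 rose in KO, 2 fell and 28 did not pass the test (limma over all 29507 probe sets tested, Benjamini-Hochberg adjusted p under 0.05). Ldhd, the gene of a mitochondrial dehydrogenase of D-lactate, rose, and Eno3, the gene of the muscle type of enolase, and Tktl1, the gene of a transketolase-like protein, fell. Ldhd passed the filter on dim probe sets only through its KO arrays, and a gene admitted this way had to differ. Over 1 probe set for each of 13279 genes, 2.33% were called, 1.37% higher and 0.956% lower, and over all probe sets 1.78% were, 1.11% higher and 0.668% lower. The median log2 difference, KO minus Het, was 0.05 over the 31 genes, with 16 above 0 and 15 below, beside a median of -0.03 over all genes. Over all genes 43.4% were above 0. Differences were positive for 5 of 5 genes of the hexose phosphate steps and for 5 of 8 from aldolase to pyruvate kinase, and negative for 5 of 7 of pyruvate entry and 4 of 4 of the pentose phosphate pathway, and most of them did not pass. The 3 calls rest on all 6 arrays: without any 1 array, none of the 3 passed (limma; 7 to 11 of the 31 had an unadjusted p under 0.05 in those fits). Calls were lost over the whole series too. Of all 29507 probe sets, 525 were called with 6 arrays and 0 to 176 in those fits. There 4227 to 5454 of the 29507 had an unadjusted p under 0.05.

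**Figure D1:**
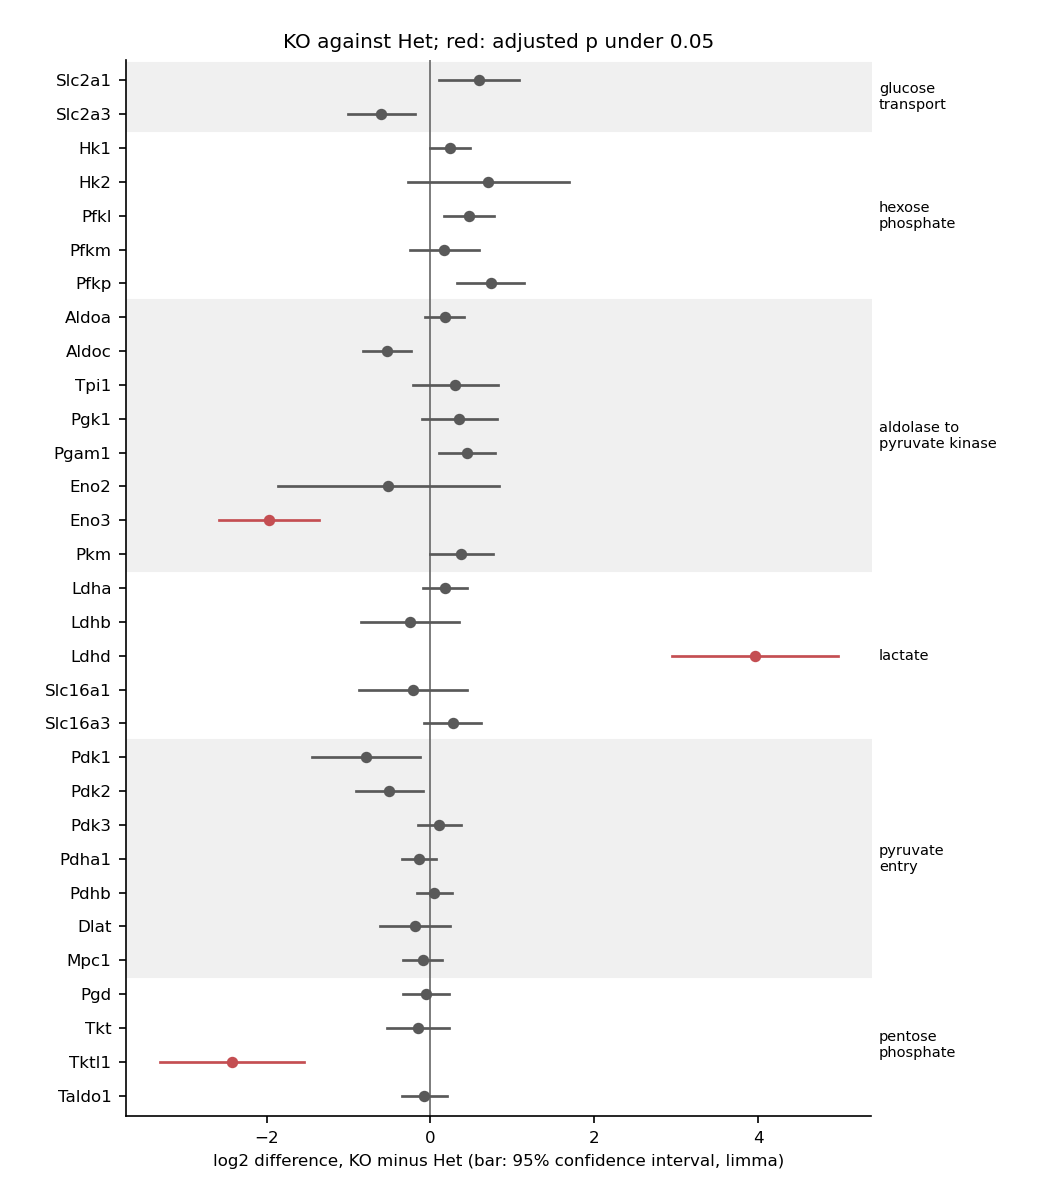
Log2 difference, KO minus Het, for each of the 31 measured genes (points), with 95% confidence intervals from limma (bars) and genes ordered by role. Ldhd lies at 3.96, Eno3 at -1.97 and Tktl1 at -2.42 (red, adjusted p under 0.05), and the other 28 genes (grey) lie between -0.79 and 0.74.

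Sequences upstream of 6 of these genes are shown: the 3 that passed the test, Slc2a1 and Pgam1, which were higher on every KO array than on every Het array and hold the motif described next, and Ldha, which holds the most matches to it. Each is the 250 bases before an annotated start, from RefSeq (GRCm38.p6), read 5′ to 3′ on the gene's own strand. Capitals mark ACGTG on either strand, the core that hypoxia-inducible factors recognise, which also lies inside CACGTG, the E-box bound by Myc and related factors. A CACGTG reads as ACGTG on both strands and counts as 2 overlapping matches. Pkm and Slc16a3 meet the same rule as Slc2a1 and Pgam1 but are not shown. Another Ldha window, chr7:46846832-46847081, held 0 matches and is not shown either.
Ldhd, chr8:111630337-111630586, minus strand: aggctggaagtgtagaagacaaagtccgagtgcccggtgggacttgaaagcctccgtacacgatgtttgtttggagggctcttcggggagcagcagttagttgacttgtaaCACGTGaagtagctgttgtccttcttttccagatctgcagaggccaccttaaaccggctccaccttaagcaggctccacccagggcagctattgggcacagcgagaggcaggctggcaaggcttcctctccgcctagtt
Eno3, chr11:70656926-70657175, plus strand: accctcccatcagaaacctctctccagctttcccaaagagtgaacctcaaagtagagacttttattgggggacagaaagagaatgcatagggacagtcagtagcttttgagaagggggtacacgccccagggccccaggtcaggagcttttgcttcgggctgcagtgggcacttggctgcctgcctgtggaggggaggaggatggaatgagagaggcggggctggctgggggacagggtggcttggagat
Tktl1, chrX:74177009-74177258, plus strand: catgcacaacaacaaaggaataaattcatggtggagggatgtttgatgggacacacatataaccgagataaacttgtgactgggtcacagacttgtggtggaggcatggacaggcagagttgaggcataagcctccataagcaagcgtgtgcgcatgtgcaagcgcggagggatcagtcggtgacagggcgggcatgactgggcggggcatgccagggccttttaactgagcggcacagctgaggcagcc
Slc2a1, chr4:119108495-119108744, plus strand: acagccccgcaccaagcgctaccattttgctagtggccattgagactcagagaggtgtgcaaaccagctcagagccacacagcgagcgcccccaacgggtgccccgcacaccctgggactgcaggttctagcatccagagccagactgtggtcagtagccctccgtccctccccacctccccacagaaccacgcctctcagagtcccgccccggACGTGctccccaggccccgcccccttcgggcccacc
Pgam1, chr19:41911621-41911870, plus strand: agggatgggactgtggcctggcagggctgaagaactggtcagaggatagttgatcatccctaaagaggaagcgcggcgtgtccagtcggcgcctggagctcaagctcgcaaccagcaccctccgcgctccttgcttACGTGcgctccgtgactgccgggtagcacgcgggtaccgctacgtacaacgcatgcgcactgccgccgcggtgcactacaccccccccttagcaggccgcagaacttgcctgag
Ldha, chr7:46845554-46845803, plus strand: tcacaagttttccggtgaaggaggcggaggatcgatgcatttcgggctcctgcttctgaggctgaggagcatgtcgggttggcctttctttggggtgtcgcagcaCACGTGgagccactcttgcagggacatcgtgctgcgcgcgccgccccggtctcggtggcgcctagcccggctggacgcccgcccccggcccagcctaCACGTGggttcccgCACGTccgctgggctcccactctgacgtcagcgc

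ACGTG was found in 16 of 50 upstream windows of the listed genes (32.0%) and in 16.6% of all 32851 windows of the same length. The windows of the listed genes were also richer in G and C, with a median of 60.8% against 52.4%. Of the 30 measured genes with a window, 14 held the motif in at least 1 window, and 12 of these 14 had a positive log2 difference (median 0.22). Of the 16 without it, 4 had a positive difference (median -0.15). Over all genes 43.4% had a positive difference. No split by the motif was computed over all genes, so these shares have nothing to be set against. Ldhd, among the 14, passed the filter on dim probe sets only through its KO arrays. The search was added after the values were seen, and genes with several windows had more chances to hold a match. These are counts over letters in short windows, given without a test. Whether the motif bears on any difference was not tested. Ldhd held CACGTG, while the windows of Eno3 and Tktl1 held no ACGTG. The other genes higher on every KO array were divided. Slc2a1, Pgam1, Pkm and Slc16a3 held ACGTG in a window, and Pfkp, Pfkl and Hk1 did not. Of these genes, only Slc2a1 and Pgam1 have their windows shown.

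**Figure D2:**
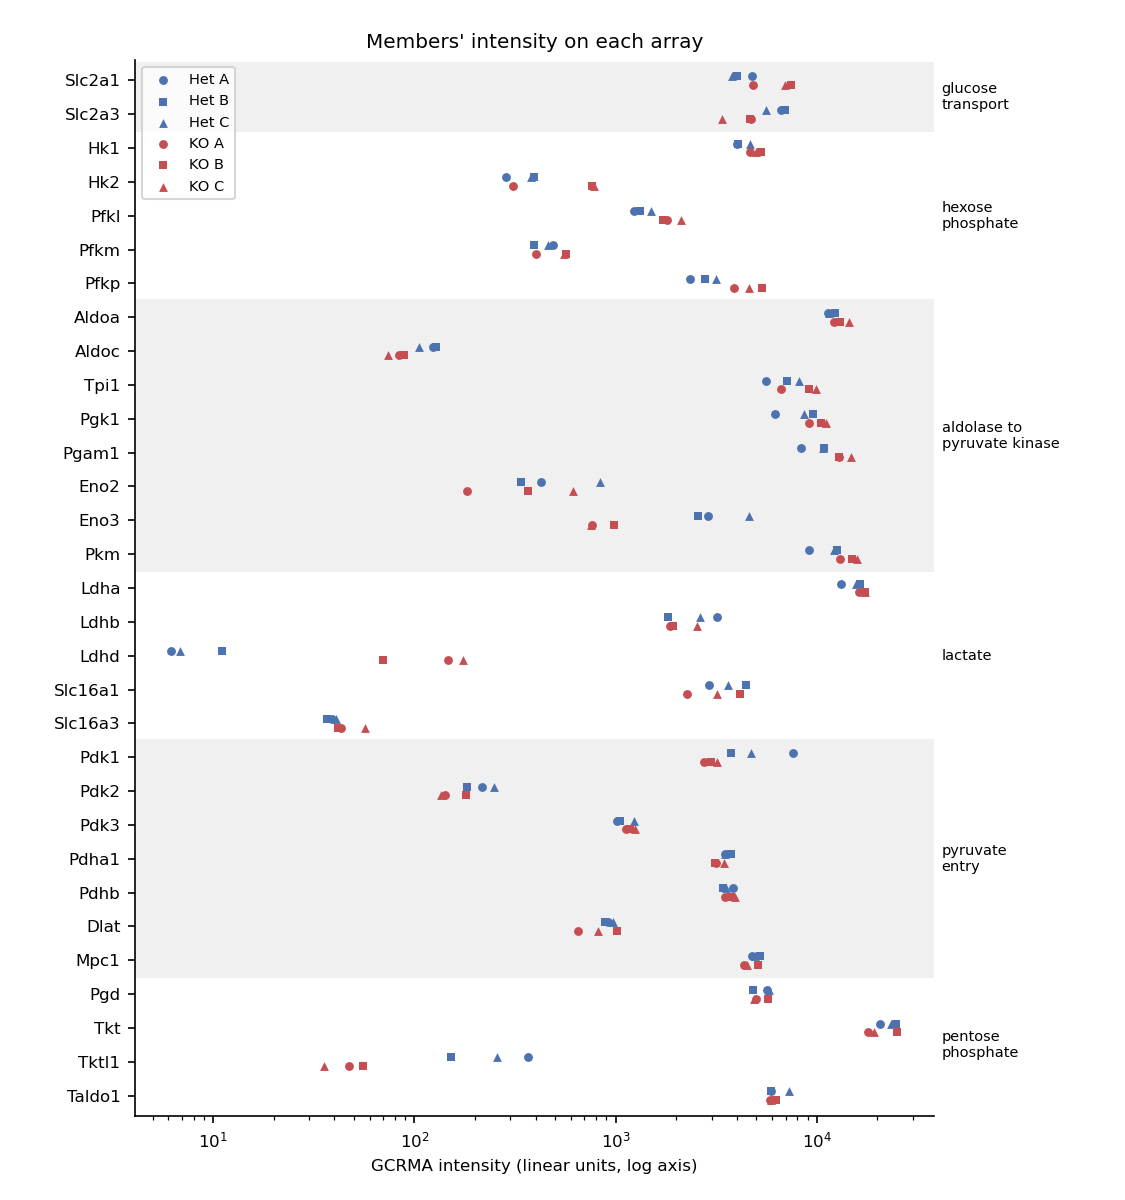
GCRMA intensity (log axis) of the 31 measured genes on each array, with Het in blue, KO in red, and circles, squares and triangles for arrays A, B and C. Het and KO points stand widely apart for Ldhd, Eno3 and Tktl1 and lie close together for most other genes, such as Taldo1 and Pdhb.

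The glucose transporters differed in opposite directions, and neither passed the test. Slc2a1, the gene of GLUT1, the transporter that activated T cells induce, read 4783, 3989 and 3792 in Het against 4795, 7417 and 6933 in KO. KO A matched Het A closely, and the other KO arrays were well above all Het arrays. The log2 difference was 0.59 ± 0.20 (SE; limma, adjusted p = 0.194), and its dimmer probe sets gave 0.65 and 0.98. Slc2a3, the gene of the high-affinity transporter GLUT3, read 6644, 6929 and 5619 in Het against 4682, 4671 and 3390 in KO. Every KO array was below every Het array, and the log2 difference was -0.60 ± 0.16 (limma, adjusted p = 0.137). A second bright Slc2a3 probe set gave -0.61, and its dimmest 2 gave -0.19 and 0.01 at intensities below 60.

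The ratio of Slc2a1 to Slc2a3 within an array changed by a log2 of 1.19 from Het to KO, and no KO array overlapped a Het array. Among 10 such ratios between family members, 6 had groups that did not overlap, each with p = 0.10, the smallest that an exact two-sided permutation test of 3 arrays against 3 can give (0.167 adjusted over the 10). None of the 10 passed after adjustment, and in the other 4 the groups overlapped. Among single genes 29.9% had groups that did not overlap, and no such share was computed for ratios of other gene pairs. Pfkp and Pdk1 each enter more than 1 ratio, so the 10 are not independent. Such a ratio compares the changes of its 2 genes and does not say which was more abundant.

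Genes of the hexose phosphate steps had positive differences throughout, 5 of 5 measured, with a median log2 of 0.47, and 0 passed the adjusted threshold (limma; 2 with an unadjusted p under 0.05, where 10.7% of all genes were higher). Pfkp, the platelet type of phosphofructokinase, the enzyme that commits sugar to glycolysis, read 2334, 2771 and 3146 in Het against 3882, 5312 and 4577 in KO. All KO arrays exceeded all Het arrays, by a log2 of 0.74 ± 0.17 (SE; limma, adjusted p = 0.0930), and its other probe sets gave 1.36 and 0.20. Pfkl, the liver type, read 1231, 1326 and 1501 in Het against 1793, 1728 and 2117 in KO, again without overlap. Its log2 difference was 0.47 ± 0.12 (limma, adjusted p = 0.122), and of its other probe sets 1 gave 0.60 and a dimmer 1 gave -0.03. Pfkm, the muscle type, gave log2 0.17 with overlapping groups. The ratio of Pfkp to Pfkl changed by a log2 of 0.26 and that of Pfkp to Pfkm by 0.57, both without overlap.

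Hexokinases trap glucose in the cell by phosphorylating it. Hk1, the broadly expressed form, read 3989, 4060 and 4634 in Het against 4666, 5288 and 5013 in KO. The groups were separated by a narrow gap between Het C and KO A, and the log2 difference was 0.24 ± 0.10 (SE; limma, adjusted p = 0.266), and 0.48 on its other probe set. Hk2, the inducible form, read 284, 394 and 380 in Het against 309, 766 and 779 in KO. KO A lay within the Het range while KO B and KO C were near 2 times the highest Het array, so the log2 difference of 0.71 ± 0.40 had a wide 95% confidence interval, from -0.27 to 1.68. The ratio of Hk2 to Hk1 changed by 0.47, and its groups overlapped (exact permutation p = 0.40).

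From aldolase to pyruvate kinase, 5 of 8 measured genes had a positive difference, 1 fell and 7 did not pass. Eno3 fell. Its Het arrays read 2873, 2571 and 4585, and its KO arrays 765, 978 and 753. The KO arrays lay together far below the Het arrays, among which Het C stood highest. Means were 3343 ± 1090 in Het and 832 ± 127 in KO (SD, n = 3), a 3.92-fold decrease (95% confidence interval 2.56 to 5.98; log2 -1.97 ± 0.25, SE; limma, adjusted p = 0.0310). Leaving out each array in turn gave log2 -2.14 to -1.72 with adjusted p of 0.0699 to 0.113, and leaving out both B arrays gave -2.26. All 6 readings of Eno3, whose product is the enolase of muscle, were above the array medians. It has 1 probe set with its symbol alone, so no second one checks it. Eno2, the neuronal type, varied widely within both groups, from 338 to 841 in Het and from 183 to 615 in KO (log2 -0.51 ± 0.54).

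The other enzymes of this stretch differed by less. Pgam1, the gene of phosphoglycerate mutase, read 8320, 10877 and 10769 in Het against 12951, 12826 and 14845 in KO. Its groups did not overlap, and the log2 difference was 0.45 ± 0.14 (SE; limma, adjusted p = 0.170). Pkm, the gene of pyruvate kinase, whose M2 form this array does not separate from M1 by gene symbol, read 9175, 12623 and 12206 in Het against 13056, 14890 and 15874 in KO. These too were apart, by a log2 of 0.38 ± 0.16 (limma, adjusted p = 0.273). Het A was the lowest array for both genes. Pgk1 (log2 0.35), Tpi1 (0.30) and Aldoa (0.17) had overlapping groups. The other 4 Aldoa probe sets gave -0.05 to 0.22, and those of Tpi1 and Pgk1 0.32 to 0.45. Several of these genes have processed pseudogenes, so probes could also read related transcripts. Aldoc, the brain type of aldolase, went the other way, with Het arrays at 124, 128 and 105 and KO arrays at 84.1, 89.1 and 74.4. It was lower on every KO array, by a log2 of -0.53 ± 0.12 (limma, adjusted p = 0.0928), and the ratio of Aldoa to Aldoc changed by a log2 of 0.70 without overlap. The other Aldoc probe set stayed under the filter level, at intensities near 10 in both groups (log2 0.02).

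Gapdh was present through control probe sets at the 3′ end, middle and 5′ end of its transcript. The 3′ set read 28810, 36524 and 34850 in Het against 39266, 41998 and 44906 in KO. All KO arrays were above all Het arrays, with a log2 difference of 0.34 (exact permutation p = 0.10, two-sided, the smallest possible). The middle set gave 0.43 and the 5′ set 0.36, the latter with overlapping groups. The ratio of 3′ to 5′ signal, a measure of RNA integrity, was 1.33 to 1.49 in Het and 1.24 to 1.59 in KO (exact permutation p = 0.80). The same ratio for beta-actin also overlapped between groups (exact permutation p = 0.90).

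**Figure D3:**
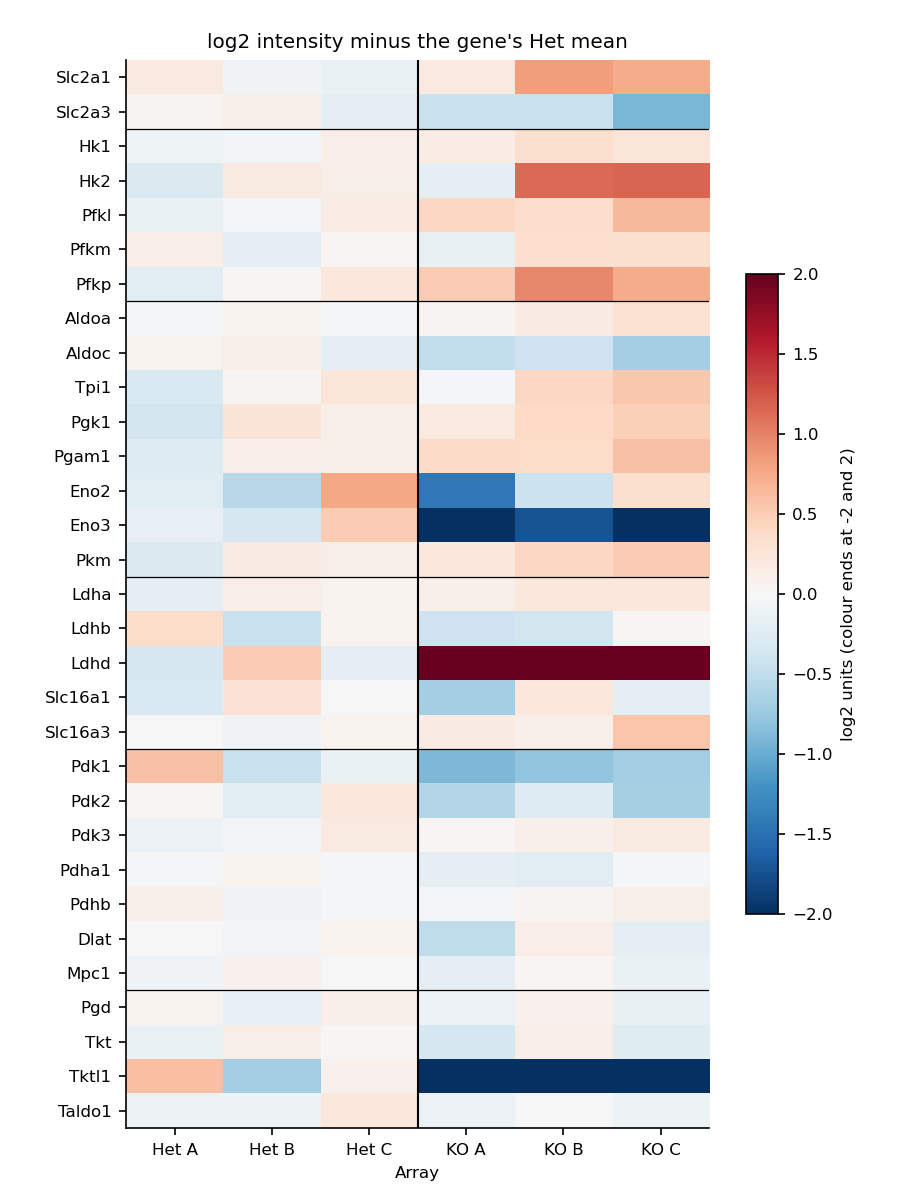
Log2 intensity of the 31 measured genes on each array minus the gene's mean over the Het arrays (red above, blue below, colour ends at -2 and 2), with roles separated by lines. Most glycolytic enzymes are pale red in KO B and KO C and paler in KO A, and the deepest colours on KO arrays are those of Ldhd, Tktl1 and Eno3, with Eno3 at -1.73 on KO B inside the colour range.

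Among lactate genes Ldhd rose and 4 did not pass. The Het arrays read 6.20, 11.1 and 6.88 for Ldhd, and the KO arrays 146, 70.1 and 174. Every Het reading lay below the filter level of 16, and every KO reading above the array median. Means were 8.06 ± 2.65 in Het and 130.3 ± 53.9 in KO (SD, n = 3), 15.6-fold higher (95% confidence interval 7.75 to 31.3; log2 3.96 ± 0.41, SE; limma, adjusted p = 0.0247). Ldhd passed the filter only through its KO arrays, so a gene admitted this way had to differ, and its Het readings lie near background, where a fold is imprecise. The other Ldhd probe set read 12.3, 11.8 and 11.9 in Het against 150, 27.8 and 103 in KO, at log2 2.66 (limma, adjusted p = 0.102). That set too passed the filter only through its KO arrays, so its direction is no check on the first. Without each array in turn the difference was 3.70 to 4.36 with adjusted p of 0.0517 to 0.104.

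Some markers of other cells were also higher in KO, and others were not. Of 10 myeloid markers measured 1 rose (Mpeg1), and their summed intensity was 328 to 749 in Het and 1275 to 3481 in KO, with the myeloid genes Cd14 and Itgam under 6 on every array. Cd68 was higher on every KO array, at 37.7, 28.4 and 64.0 in Het against 84.1, 231 and 186 in KO (log2 1.91; limma, adjusted p = 0.113). Lyz2 (log2 2.09) and Tyrobp (1.83) overlapped between groups. Among KO arrays the sum was highest in KO B, where Ldhd was lowest, and without both B arrays the log2 difference of Ldhd was 4.61. Of 7 plasma cell markers 1 rose (Xbp1), with sums of 11584 to 13180 in Het and 17088 to 24333 in KO. Most of each sum was Xbp1, at 7859, 7251 and 7824 in Het against 12588, 14990 and 15127 in KO. Jchain, the gene of the antibody joining chain, read 11.5, 163 and 13.6 in Het against 389, 3197 and 2623 in KO. Prdm1 was higher on every KO array (log2 0.77; limma, adjusted p = 0.172). Mzb1 (1.65) and Irf4 (-0.33) overlapped between groups. Sdc1 lay between 72.2 and 80.6 and Tnfrsf17 near 5 on all arrays. Among KO arrays Jchain was lowest in KO A and Ldhd in KO B. Of 7 B cell markers measured 0 passed, with sums of 1106 to 2576 in Het and 1957 to 5124 in KO. Cd22 was higher on every KO array (log2 1.37; limma, adjusted p = 0.173), and the other B cell markers overlapped. The part of other cells in the Ldhd difference was not tested.

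The main lactate dehydrogenases did not pass the test. Ldha, whose product turns pyruvate into lactate, read 13158, 16414 and 15727 in Het against 16165, 17422 and 17305 in KO. These groups overlapped through KO A and Het B, and the log2 difference was 0.17 with a 95% confidence interval of -0.10 to 0.44. Ldhb, the subunit that favours lactate oxidation, gave log2 -0.25 with overlap, and its other 3 probe sets gave -0.19 to -0.02. The ratio of Ldha to Ldhb changed by 0.42 with overlapping groups (exact permutation p = 0.30). Slc16a1, the gene of the lactate carrier MCT1, read 2920, 4421 and 3616 in Het against 2258, 4170 and 3190 in KO (log2 -0.21, overlapping), and its other probe set, below 12 on all arrays, gave 0.15. Slc16a3, the gene of the exporter MCT4, was dim on all arrays, at 38.8, 36.9 and 40.6 in Het against 43.2, 41.8 and 57.0 in KO. Its groups were separated by a small gap, and the difference of 0.27 ± 0.14 did not pass (limma, adjusted p = 0.365).

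Of the 7 measured genes of pyruvate entry and its control, 5 were below 0 and 0 passed the adjusted threshold (limma; 2 lower with an unadjusted p under 0.05, where 11.6% of all genes were lower). Pyruvate dehydrogenase kinases switch off pyruvate dehydrogenase and so keep pyruvate out of the citric acid cycle. Pdk1 read 7650, 3752 and 4682 in Het against 2761, 2972 and 3176 in KO. All KO arrays were below all Het arrays, and the Het arrays were spread by the high value of Het A. The log2 difference was -0.79 ± 0.27 (SE; limma, adjusted p = 0.200), and -0.50 without Het A. Its other 3 probe sets were lower too, at -0.70, -0.60 and -3.51, the last being a dimmer set that read 437, 182 and 370 in Het against 10.4, 10.1 and 188 in KO (limma, adjusted p = 0.206). In that set KO C lay at the level of Het B, so the large difference comes from KO A and KO B.

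Pdk2, another kinase of this family, read 218, 183 and 248 in Het against 143, 180.2 and 135 in KO. Its groups were apart only by the small gap between Het B and KO B, and the log2 difference was -0.50 ± 0.16 (limma, adjusted p = 0.188). Pdk3 gave log2 0.11 with overlap, and the ratio of Pdk1 to Pdk3 changed by -0.89 without overlap. No subunit of the complex itself passed. Pdha1, the catalytic alpha chain, read 3488, 3743 and 3507 in Het against 3152, 3101 and 3471 in KO (log2 -0.14, limma, adjusted p = 0.419). Pdhb gave 0.05 (0.76 on a dimmer probe set), Dlat, the gene of the acetyltransferase core, -0.19, and Mpc1, a chain of the mitochondrial pyruvate carrier, -0.10, all with overlapping groups.

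In the pentose phosphate pathway, which yields NADPH and ribose for nucleotides, 1 of 4 measured genes fell and 3 did not pass. Tktl1 read 369, 152 and 257 in Het against 47.3, 55.7 and 35.6 in KO. The KO arrays clustered below the array medians, and the Het arrays were spread over more than 2 times. Means were 259 ± 108 and 46.2 ± 10.1 (SD, n = 3), a 5.36-fold decrease (95% confidence interval 2.91 to 9.87; log2 -2.42 ± 0.36, SE; limma, adjusted p = 0.0429). A second Tktl1 probe set read 149.7, 59.4 and 101 in Het against 33.8, 36.9 and 36.9 in KO. It was lower by a log2 of -1.43 (limma, adjusted p = 0.10), and its dimmest stayed between 10.7 and 12.6 on all arrays. Leaving out each array gave log2 -2.76 to -2.12 with adjusted p of 0.0671 to 0.135. The call also ended with no filter on dim probe sets (adjusted p = 0.0617) and with all Tktl1 probe sets averaged (log2 -1.92, adjusted p = 0.0561).

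Tkt, the gene of transketolase itself, read 20712, 24680 and 23238 in Het against 18017, 25148 and 19242 in KO, log2 -0.15 ± 0.15 with overlap. The ratio of Tkt to Tktl1 changed by a log2 of 2.27, and all KO arrays were above all Het arrays. Pgd, which makes NADPH in the oxidative branch, gave -0.06 on its brightest probe set and -0.11 to -0.0035 on the others. Taldo1, the gene of transaldolase, gave -0.07. Both had overlapping groups, and the 95% confidence intervals ran from -0.34 to 0.22 for Pgd and from -0.35 to 0.20 for Taldo1.

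**Figure D4:**
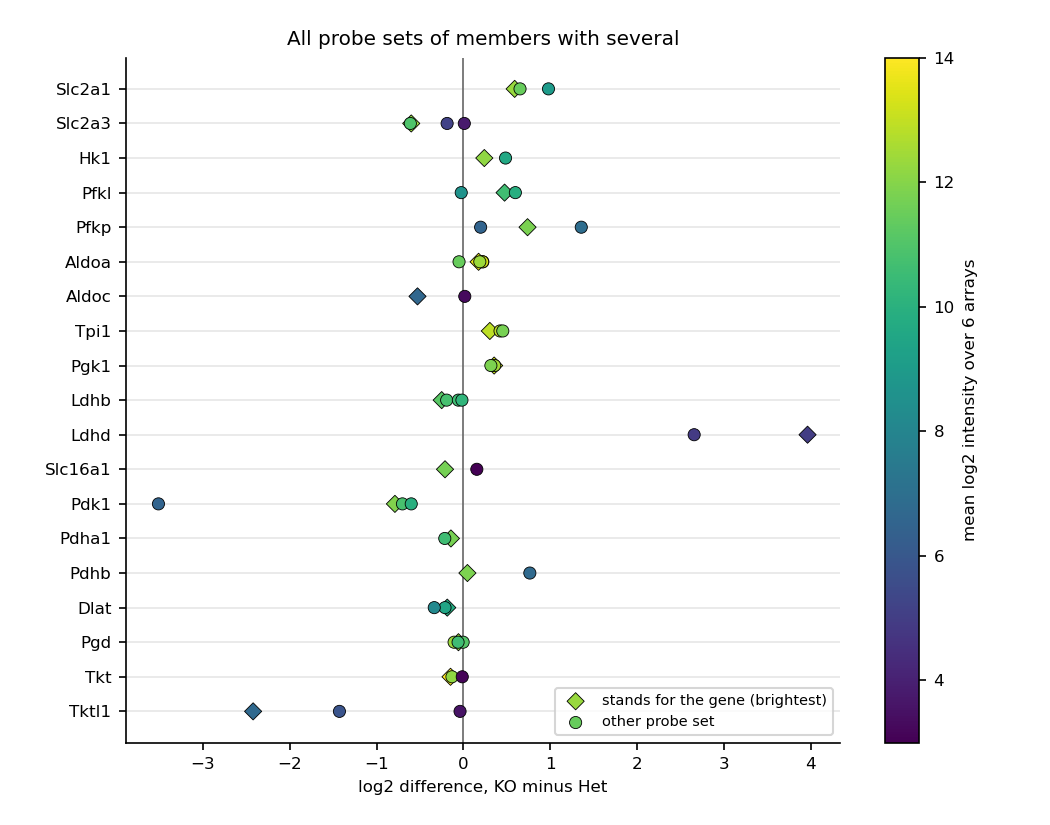
Log2 difference, KO minus Het, of every probe set of members with several (diamond: the brightest, which stands for the gene; circle: others), coloured by mean log2 intensity. The brightest sets of Slc2a3 lie at -0.60 and -0.61, while the sets of Pdk1 spread from -0.60 to -3.51 and those of Pfkp from 0.20 to 1.36.

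Arrays within a group did not contribute equally. KO A was the lowest of the KO arrays for 20 of the 31 genes and the highest for 1, and Het A was the lowest Het array for 17. Relative to the Het means, the hexose phosphate genes had a median log2 of 0.15 in KO A, 0.36 in KO B and 0.65 in KO C, and those from aldolase to pyruvate kinase 0.00, 0.27 and 0.39. Over all genes these medians were -0.04, -0.01 and -0.05. In all, 15 of the 31 genes had groups that did not overlap, 8 higher and 7 lower in KO, where 29.9% of genes did (13.2% higher and 16.8% lower). An unadjusted p under 0.05 was found for 11 of the 31 (limma; 5 higher and 6 lower) and for 22.3% of genes (10.7% higher and 11.6% lower).

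Other genes of these routes were taken from a separate list of 83, of which 76 were measured and 68 tested. By limma 2 rose, 0 fell and 66 did not pass (7 lower and 14 higher at an unadjusted p under 0.05), and the median log2 was 0.02. At that unadjusted level 11.6% of all genes were lower and 10.7% higher. A share of 2 in 68 is near the 2.33% of all genes that were called, so it is no result about the list. Adpgk, the gene of a glucokinase that uses ADP, read 424, 403 and 457 in Het against 965, 995 and 734 in KO, without overlap. The difference was 2.08-fold (log2 1.06 ± 0.14, SE; limma, adjusted p = 0.0368), and its other probe set gave 0.20 (adjusted p = 0.471). Rbks, the gene of ribokinase, read 176, 193 and 155 in Het against 305, 415 and 383 in KO, 2.09-fold higher (log2 1.07 ± 0.15; limma, adjusted p = 0.0417). Leaving out any 1 array ended the call for Adpgk (adjusted p = 0.0700 to 0.134) and for Rbks (0.0516 to 0.140).

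Among the transcriptional and signalling regulators in that list, 0 of 17 passed (limma; 5 higher and 0 lower with an unadjusted p under 0.05). Over all genes 10.7% were higher and 11.6% lower at that level, and the regulators were not tested as a set. Epas1, the gene of the hypoxia-inducible factor HIF-2alpha, had the next smallest p in the list. It read 43.2, 45.1 and 70.2 in Het against 374, 3097 and 4981 in KO. The KO arrays were all higher but differed among themselves more than 10-fold, and KO A was again the lowest. The log2 difference of 5.12 ± 0.98 did not pass with all arrays (limma, adjusted p = 0.0695) and passed without KO A (6.25, adjusted p = 0.0285).

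**Figure D5:**
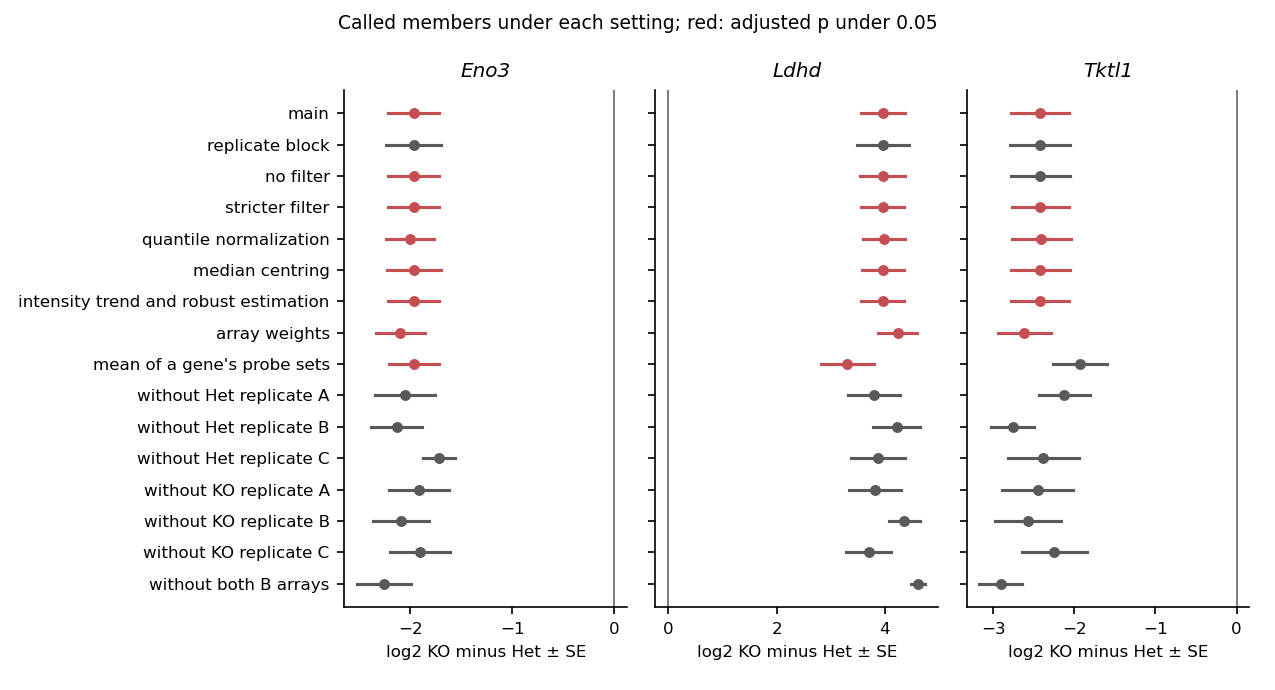
Log2 difference, KO minus Het, with its standard error for Eno3, Ldhd and Tktl1 in each fit (red: adjusted p under 0.05). Differences keep their direction in all 16 fits, between -2.26 and -1.72 for Eno3, 3.31 and 4.61 for Ldhd and -2.91 and -1.92 for Tktl1, and every fit that leaves out an array is grey. The groups of these genes did not overlap, so leaving out arrays could not change a direction.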

How the data were processed

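The authors deposited probe set intensities, normalized with GCRMA per the labels, a method that corrects background by probe sequence, normalizes between arrays and summarises probes. No source used here gives the software version. Their range, 1.23 to 170023, shows a linear scale, so log2 was taken. Of 45101 probe sets, 64 controls and 1 with missing values were dropped. Tests ran on the 29507 whose log2 exceeded 4 on 3 or more of the 6 arrays. Gene symbols came from the platform annotation.

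KO and Het were compared by limma 3.58.1 in R 4.3.3 (lmFit, eBayes, two-sided) without covariates, with Benjamini-Hochberg adjustment over all probe sets tested. Ratios and controls were compared by exact permutation tests. On simulated data with 29507 probe sets, 200 of them changed, the fit recovered 6.2% of those changed by a log2 of 0.5, 45.8% by 1, 76.6% by 2 and 87.6% by 3, and 6.12% of calls were false. The simulated noise was normal and drawn separately for each probe set. In the real data 5630 probe sets had an unadjusted p under 0.05 (limma), and arrays can shift many genes together. The simulated shares therefore need not hold for these data. The genes, lists and tests were chosen with earlier results of these data known. All listed genes could be named. Full values were given for those past the threshold, with an unadjusted p under 0.05 or without overlap, and at least 2 per role. Other pathway genes were named where they passed or were among the 3 of smallest p. The ACGTG search was added after the values were seen. Alternatives were a replicate block, other filters and normalizations, other variance models, averaged probe sets and leaving out arrays. Precision is limited by 3 arrays per group.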

Additional observations from a re-analysis of the deposited data

How the results depend on the processing

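Over 19 genes and 10 family ratios, 0 of 374 values under an alternative changed sign. Most of these genes were followed because their groups did not overlap or their p was small. Where groups do not overlap, leaving out an array cannot change the sign, so much of this count was fixed in advance. With all 6 arrays 525 probe sets, 3 listed genes and 2 other pathway genes were called (limma). Leaving out each array in turn left 0 to 176 probe sets, 0 listed genes in every case and 0 to 1 pathway genes, with 4227 probe sets at an unadjusted p under 0.05 without KO C, where 0 were called. Omitting Het A gave 3, Het B 18, Het C 2, KO A 176 and KO B 8 probe sets. Without both B arrays the 3 counts were 0, 0 and 0 (limma; 5274, 9 and 15 at an unadjusted p under 0.05). Array weights called 957 probe sets, and the cause of this rise was not tested. For the other pathway genes, no filter left 1 call and averaging probe sets per gene left 0 (limma; 19 at an unadjusted p under 0.05).

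With the replicate letter as a replicate block, limma called 0 probe sets, 0 listed genes and 0 pathway genes (5365, 12 and 13 at an unadjusted p under 0.05). The letters were not shown to pair the arrays: deviations from the group means correlated at 0.28 for A, -0.17 for B and 0.01 for C, and only the A arrays correlated best with their own letter. The block fit has fewer residual degrees of freedom. Dim probe sets, such as those of Ldhd and Tktl1 in the group where each was low, limit how far folds can be read.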
